A study of Mus musculus with 24 samples.

Results

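HC11 cells infected to overexpress *mPINC1.0* together with *mPINC1.6*, named LeGO-1.0/1.6, were compared with HC11 cells carrying the vector control, LeGO-GFP, all treated with lactogenic hormones. These are 6 of the 24 arrays of the study, 3 in each group, and were taken by their labels. HC11 cells are an established mouse mammary epithelial line (parent line Comma-D, Balb/c strain, pregnant donor). The cells of each group were infected with lentivirus made with the LeGO vectors at a multiplicity of infection of 20, expanded and frozen, so a group is a pool of infected cells from the line and not a clone. Another lentivirus group, LeGO-DCR, also 3 arrays, carried a deletion mutant of *mPINC* that lacks both terminal exons and with them the most conserved regions. All 9 lentivirus arrays measured cells that received hydrocortisone, insulin and prolactin, and none was of cells without hormones. How long the hormones were given is not stated for the arrays. The other 15 arrays measured cells with siRNAs. Of these the 5 arrays of the control siRNA (siNEG), 2 without (−LH) and 3 with (+LH) hormones, were compared. Genes higher or lower in +LH cells are described below as raised or lowered by the hormones. The other siRNA arrays entered the same fit for its estimate of the spread. The paper's growth medium held EGF and calf serum, and its hormone medium stripped horse serum and no listed EGF. The medium of the −LH arrays is not stated. Effects of the medium and of the hormones therefore cannot be told apart.

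*mPINC* is a spliced long noncoding RNA that is induced in the mammary gland in pregnancy and declines when milk production begins. Alveolar cells of the gland mature at that time under glucocorticoid, insulin and prolactin. Prolactin acts through its receptor, the kinase JAK2 and the transcription factor STAT5, and mature cells make caseins, whey proteins and milk fat and seal the alveolus with tight junctions. HC11 cells grown to confluence and given these hormones copy part of this program, with β-casein (*Csn2*) as the usual marker. The comparison asks which genes differed when *mPINC* was kept at a high level during hormone treatment.

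Values are log2 processed signals of Agilent arrays with 55681 probes, quantile normalized, 1 array per sample. Between 26018 and 35380 probes per lentivirus array were well above background by the mark of the scanner software. LeGO-1.0/1.6 replicate 1 stood apart, with 644 outlier spots, 443 of them non-uniform, against 179 to 253 outlier spots on the other lentivirus arrays, and with the 35380 bright probes against at most 30750. Of 27540 probes well above background on the 3 LeGO-1.0/1.6 arrays, 1525 differed by more than 1 on the log2 scale between replicates 1 and 2 and 1498 between replicates 1 and 3, but 109 between replicates 2 and 3. LeGO-GFP replicate 1 lay on slide 1 with the −LH arrays, whereas the other 8 lentivirus arrays shared slide 3. Results were therefore also computed without LeGO-1.0/1.6 replicate 1 and within slide 3. The paper calls these arrays biological triplicates but does not say whether they were separate cultures or infections. The p-values therefore measure the spread between these samples, which may not include that between infections. The 3 arrays per group limit the precision. *Xist* had mean log2 signals of 8.48 in LeGO-GFP and 8.42 in LeGO-1.0/1.6 cells, and the Y-linked *Ddx3y*, *Kdm5d*, *Uty* and *Eif2s3y* were well above background on 0 lentivirus arrays.

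The introduced RNA itself was compared first. The *mPINC* probe that names the gene in the study, A_55_P2179186, had log2 signals of 6.38, 5.92 and 5.92 in LeGO-GFP and 13.50, 13.48 and 13.34 in LeGO-1.0/1.6 cells. Every LeGO-1.0/1.6 array lay far above every LeGO-GFP array. Its log2 fold change was 7.37 (standard error, SE, 0.136, limma adjusted p = 1.04e-07). Of the 5 other probes that the array annotates as PINC, 3 rose by 6.58, 7.89 (2 LeGO-GFP arrays above background) and 7.45 on the log2 scale. The remaining 2 were at background in LeGO-GFP cells and had means of 11.1 and 11.5 in LeGO-1.0/1.6 cells. In LeGO-DCR cells the 6 probes lay between −0.30 and 0.07 from LeGO-GFP, with every adjusted p from limma at 1. The level of the deletion mutant is thus not known from these arrays, because no table used here says whether the probes lie in the part it lacks. The paper measured it by RT-PCR and qPCR. There it lay far above LeGO-GFP and near the level of the overexpressed RNA in LeGO-1.0/1.6 cells. In siNEG cells the 6 probes differed between +LH and −LH by −0.76 (not called) to −2.83, and the mean of A_55_P2179186 was 7.44 in −LH and 4.87 in +LH cells. The signal in LeGO-1.0/1.6 cells was thus above that of untreated as well as hormone-treated siNEG cells.

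**Figure D1:**
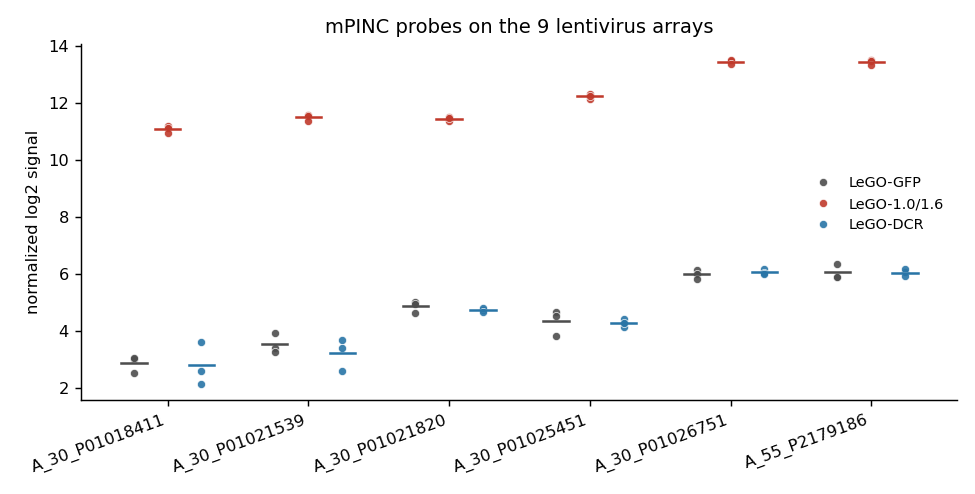
Normalized log2 signal (vertical axis) of the 6 *mPINC* probes (horizontal axis) on the 9 lentivirus arrays. Points are arrays, coloured by group, and horizontal bars are group means of 3 arrays. For A_55_P2179186 the LeGO-1.0/1.6 arrays lie between 13.34 and 13.50, and LeGO-GFP and LeGO-DCR arrays overlap.

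At an adjusted p under 0.05, which defines a called probe here, limma called 16857 of 55681 probes (30.3%) when LeGO-1.0/1.6 was set against LeGO-GFP. After *mPINC* overexpression 8068 of these were higher and 8789 lower, and the median size of the change was 0.84 on the log2 scale. Changes over 1 on the log2 scale were seen for 3204 higher and 3840 lower probes, and changes over 4 for 141 higher and 187 lower probes. The 2 groups did not overlap for 16831 of the called probes, which a call with 3 arrays per group nearly requires, so this count adds no support. Of the 24411 probes well above background on every array of both groups, 13663 were called. A further 820 probes were well above background on every LeGO-1.0/1.6 array and on no LeGO-GFP array, and 291 were the reverse. Without LeGO-1.0/1.6 replicate 1 these numbers were 870 and 535, so the count of lost signals depended on that array. The number of called probes was 16397 without it, 15270 of them called in both fits and 0 with opposite signs, and 17083 within slide 3. For genes, each represented by 1 probe, 4555 of 20169 (22.6%) were higher and 4665 (23.1%) lower, with a median log2 fold change of −0.01 over all genes. Counts of gene groups below are to be read against these shares. These shares include 6602 genes whose probe was well above background throughout neither group. Over the 13659 genes with a bright probe, all bright probes averaged, 4865 were higher and 4921 lower. For lists made mostly of bright genes these larger shares are the closer reference. Without LeGO-1.0/1.6 replicate 1 the count of lower Hox genes moved by over 1.5 times, and no other count of higher or lower list members did.

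The deletion mutant differed from the vector control far less. Limma called 41 probes (0.0736%) between LeGO-DCR and LeGO-GFP cells, 4 higher and 37 lower, and 2519 at an unadjusted p under 0.05. Among genes the number was 8 (0.0397%). With LeGO-DCR as the control for LeGO-1.0/1.6, 16511 probes (29.7%) were called, 8089 higher and 8422 lower, and 9174 genes (45.5%). These comparisons share arrays with the first, so they are given side by side and not as separate support. LeGO-DCR lay entirely on slide 3 with LeGO-1.0/1.6.

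**Figure D2:**
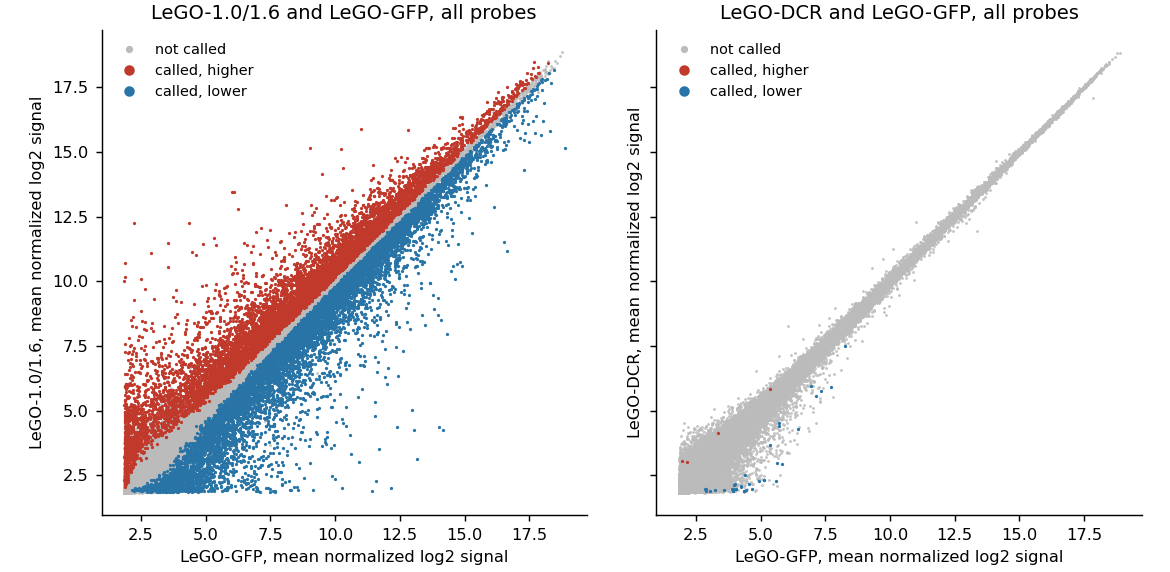
Mean normalized log2 signal of all 55681 probes in LeGO-1.0/1.6 (left) or LeGO-DCR (right) cells on the vertical axis against LeGO-GFP cells on the horizontal axis. Red and blue points were called higher and lower (16857 in all on the left, 41 on the right), and grey points were not called.

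The largest changes were ranked among called genes well above background on every array of both groups and without overlap between the groups. After *mPINC*, the largest rise was that of *S100a8*, a subunit of the neutrophil protein calprotectin. It had log2 signals of 6.28, 6.11 and 6.34 in LeGO-GFP and 12.82, 12.82 and 12.70 in LeGO-1.0/1.6 cells. Its log2 fold change was 6.54 (SE 0.105, limma adjusted p = 5.87e-08). *Slc6a12*, a betaine and GABA transporter, rose by 6.33, *Nos2*, the inducible nitric oxide synthase, by 6.12, and *Orm3*, an acute phase protein, by 6.0. *Steap1* rose by 5.02, the MAP kinase phosphatase *Dusp4* by 4.97, the EGF receptor ligand *Areg* by 4.95 and the cyclooxygenase *Ptgs2* by 4.92. The list ended with the serum amyloid gene *Saa3* (4.89), the activin subunit *Inhba* (4.86) and the cGMP-dependent kinase *Prkg2* (4.84). *Nos2* and *Saa3* were already bright in control cells, with means of 9.02 and 11.01, and reached 15.15 and 15.89. LeGO-DCR means lay at 6.23 for *S100a8*, 8.83 for *Nos2* and 10.82 for *Saa3*, close to LeGO-GFP.

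The largest fall among these genes was that of *Cxcl17*, a mucosal chemokine. It had log2 signals of 12.84, 13.08 and 13.21 in LeGO-GFP and 4.70, 4.0 and 4.04 in LeGO-1.0/1.6 cells, a log2 fold change of −8.79 (SE 0.199, limma adjusted p = 1.86e-07). *Lrrc26*, an auxiliary subunit of BK potassium channels, fell from 12.34, 12.34 and 12.48 to 4.63, 4.38 and 4.12, a log2 fold change of −8.01. Each of these genes went from a bright to a dim probe, and the lack of overlap was a condition of the ranking. *Pip*, the prolactin-induced protein, changed by −7.92, the sulfotransferase *Sult1a1* by −6.73, the phospholipid flippase *Atp10b* by −6.51 and surfactant protein D (*Sftpd*) by −6.36. Next came *Sectm1b* (−6.29), the mitochondrial acetyl-CoA synthetase *Acss1* (−6.17), *Sectm1a* (−5.99), the VIP receptor *Vipr1* (−5.95), *1700016C15Rik* and the GABA receptor subunit *Gabrp* (−5.78). In siNEG cells the hormones had raised *Cxcl17* by 7.67, *Sult1a1* by 7.56, *Lrrc26* by 5.08 and *Vipr1* by 4.47. *Gabrp* (0.32) was not called for the hormones.

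For a further 279 called genes the probe was well above background on all LeGO-1.0/1.6 arrays and on no LeGO-GFP array, and for 118 it was the reverse. For such genes a lower bound of the fold is given, the mean of the bright group over a floor in the dim group, which is the higher of an array's lowest signal well above background and the probe's own signal. *Lilrb4a*, an inhibitory receptor of myeloid cells, had log2 signals of 12.26, 12.32 and 12.25 in LeGO-1.0/1.6 cells and was at least 301-fold higher. *Sprr2d* and *Sprr2e*, small proline-rich proteins of the epidermis, were at least 102-fold and 69.3-fold higher. The chemokine *Ccl2* was at least 90.8-fold higher, the granulocyte colony-stimulating factor *Csf3* at least 66.1-fold and the cytokine *Il1a* at least 62-fold. For *Ccl2* the log2 signals were 3.91, 3.52 and 3.14 in LeGO-GFP and 10.43, 10.64 and 10.57 in LeGO-1.0/1.6 cells. In the other direction, *Krt23*, a type I keratin, had log2 signals of 12.21, 12.22 and 11.98 in LeGO-GFP cells and was at least 449-fold lower. The cartilage protein chondromodulin (*Cnmd*) was at least 302-fold lower, the chemokine *Ccl6* at least 154-fold, the cytochrome *Cyp2d10* at least 124-fold, osteomodulin (*Omd*) at least 56.7-fold and *Vax2os2* at least 51.9-fold. For *Ccl6* the spot on LeGO-1.0/1.6 replicate 1 was an outlier and was left out. These 12 genes were called under every alternative processing that was tried.

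Most milk protein genes fell. Of 22 caseins, whey proteins and other secreted milk proteins measured, 14 were lower and 2 higher in LeGO-1.0/1.6 cells, with a median log2 fold change of −0.77 (−1.33 over the 19 genes with a bright probe when all bright probes of a gene were averaged). *Csn2* had log2 signals of 6.0, 6.21 and 6.24 in LeGO-GFP and 1.89, 1.92 and 1.90 in LeGO-1.0/1.6 cells, where no array had it well above background. The groups did not overlap, and *Csn2* was at least 7.1-fold lower (adjusted p = 9.76e-06 from limma). For comparison, the siNEG means of *Csn2* were 1.97 in −LH and 10.94 in +LH cells, so the LeGO-GFP cells lay between them. *Ltf*, the iron-binding protein lactoferrin, went from 14.88, 14.97 and 14.88 to 10.63, 10.59 and 10.60, a log2 fold change of −4.31 (SE 0.0638, limma adjusted p = 4.93e-08). *Wap*, the whey acidic protein, had log2 signals of 4.25, 5.15 and 5.04 in LeGO-GFP and 1.91, 2.58 and 2.34 in LeGO-1.0/1.6 cells and was at least 2.81-fold lower. The 2 groups were apart for both genes.

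*Wfdc18*, a further whey acidic protein family member, was the brightest named gene on each LeGO-GFP array, at 18.87, 18.87 and 18.87, values that are equal because quantile normalization gives equal ranks equal values. It fell to 15.20, 15.11 and 15.14, a log2 fold change of −3.72. *Csn3*, κ-casein, which holds the casein micelle in solution, changed by −1.92, and *Fcgbp* by −2.87, with 1 LeGO-1.0/1.6 array well above background. *Csn1s1* (αS1-casein) was called lower as well, but its probe was well above background on 1 LeGO-GFP array alone, so no fold is given. The apolipoprotein *Clu* (−0.83), ceruloplasmin (*Cp*, −0.76), osteopontin (*Spp1*, −0.68) and α-lactalbumin (*Lalba*, −0.72), the regulatory subunit of lactose synthase, fell by less. The 2 rises were those of proteins also known from inflammation, *Chil1* (2.90) and *Lcn2* (0.63). *Csn1s2a* and *Glycam1* were not well above background in either group. LeGO-DCR means were 6.48 for *Csn2*, 15.04 for *Ltf*, 4.91 for *Wap* and 6.11 for *Csn3*, against LeGO-GFP means of 6.15, 14.91, 4.82 and 5.68. Between these groups 0 members of the list were called, against 8 of all 20169 genes (0.0397%). In siNEG cells 12 of the 22 genes rose and 2 fell with the hormones, with a median of 1.43. Over all 20169 genes 4290 rose and 3943 fell with the hormones, and hormone counts below are to be read against these. The transferrin gene *Trf* (−0.58) was called under 12 of 22 alternatives.

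The promoters of 2 of the milk genes with the largest falls are shown because both hold letters of the STAT5 recognition sequence. The windows run from 250 bases before to 50 bases after the start in RefSeq (GRCm38.p6), at chr6:41847299-41847598 on the plus strand for *Pip* and chr5:87699376-87699675 on the minus strand for *Csn2*. Capitals mark matches to TTCNNNGAA, which reads the same on both strands. Of the 17 milk protein genes with a window, 6 (35.3%) held a match, against 9.55% of 27025 genes. Among the 10 of these 17 that were called lower, 3 held a match. Whether the motif goes with the change was not tested. The window of *Ltf* held none.
Pip: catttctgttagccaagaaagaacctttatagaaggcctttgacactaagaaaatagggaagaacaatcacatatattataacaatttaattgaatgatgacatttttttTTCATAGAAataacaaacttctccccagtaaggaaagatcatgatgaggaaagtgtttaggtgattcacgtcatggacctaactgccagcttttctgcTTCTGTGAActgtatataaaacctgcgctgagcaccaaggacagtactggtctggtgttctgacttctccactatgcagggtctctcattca
Csn2: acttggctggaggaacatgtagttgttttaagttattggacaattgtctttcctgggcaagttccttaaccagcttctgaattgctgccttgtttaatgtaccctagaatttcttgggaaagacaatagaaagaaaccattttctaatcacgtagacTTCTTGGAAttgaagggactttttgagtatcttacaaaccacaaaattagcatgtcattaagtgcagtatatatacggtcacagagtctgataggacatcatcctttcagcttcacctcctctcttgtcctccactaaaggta

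**Figure D3:**
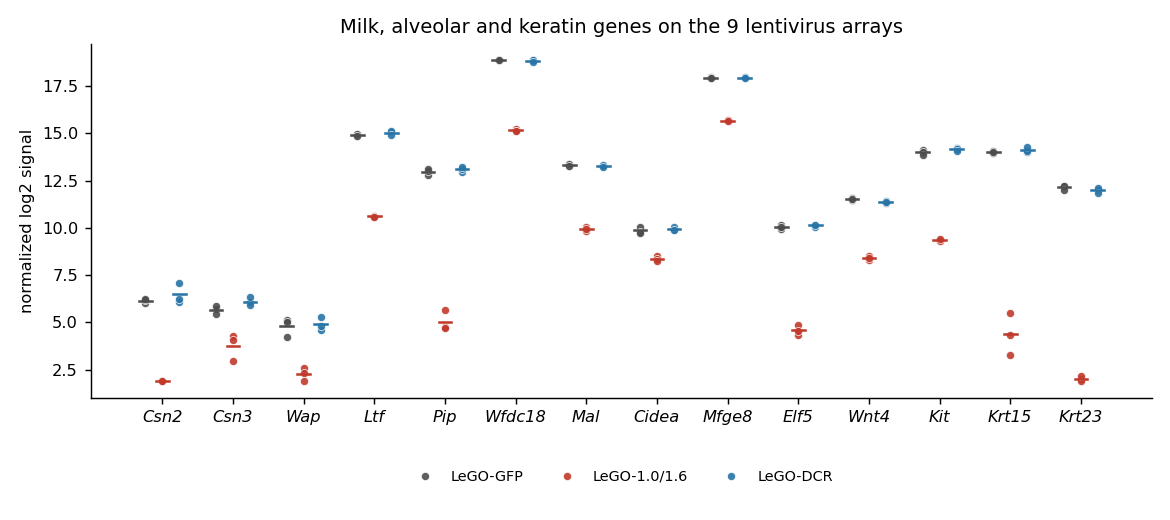
Normalized log2 signal (vertical axis) of 14 milk, alveolar and keratin genes (horizontal axis) on the 9 lentivirus arrays. Points are arrays, coloured by group, and bars are means of 3 arrays. For each of these genes the LeGO-1.0/1.6 points lie below the LeGO-GFP points, and the LeGO-DCR means lie close to the LeGO-GFP means. The 14 genes were picked and all of them fell. Members of the same lists that rose, such as *Krt16*, *Chil1*, *Lif* and *Dgat2*, are not drawn.

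Genes of milk fat did not move one way. Of 30 measured, 14 were higher and 9 lower, with a median log2 fold change of 0.28. Lower were *Mal*, a raft protein of apical transport (−3.36), *Mfge8*, a protein of the milk fat globule membrane (−2.27) and *Cidea*, which acts in lipid droplet growth (−1.48). *Mfge8* went from 17.95, 17.93 and 17.93 to 15.67, 15.70 and 15.65, with no overlap. Lower as well were the lipogenic regulators *Thrsp* (−1.89, 1 LeGO-1.0/1.6 array above background) and *Srebf1* (−1.75) and the elongase *Elovl6* (−1.61). Higher were lipoprotein lipase (*Lpl*, at least 6.92-fold), the triglyceride-forming enzyme *Dgat2* (3.48), the glucose transporter *Slc2a1* (1.51) and *Insig1*, a brake on sterol synthesis (1.30). *Dgat2* went from 9.32, 9.17 and 9.12 to 12.69, 12.72 and 12.64. The thioesterase *Olah* was called higher, with log2 signals of 4.93 and 5.48 on LeGO-1.0/1.6 replicates 2 and 3, the outlier spot of replicate 1 left out and 0 LeGO-GFP arrays above background, and kept its call under 18 of 21 alternatives. The core globule proteins *Btn1a1* and *Xdh* rose by 0.80 and 1.01.

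Of 32 receptors and transcription factors of the lactogenic response, 16 were lower and 8 higher, with a median of −0.21. *Elf5*, the ETS factor that drives alveolar fate, had log2 signals of 10.16, 9.93 and 10.04 in LeGO-GFP and 4.87, 4.33 and 4.53 in LeGO-1.0/1.6 cells, a log2 fold change of −5.47 (SE 0.137, limma adjusted p = 2.77e-07). Its LeGO-DCR mean was 10.14, close to the 10.04 of LeGO-GFP. *Wnt4*, a ligand that acts in side branching, changed by −3.10, *Id2* by −2.58, *Tfap2c* by −2.08 and the ETS factor *Ehf* by −1.86. The parts of the prolactin pathway itself differed less. The prolactin receptor *Prlr* fell by 0.90 on the log2 scale, *Stat5a* by 0.21, and the glucocorticoid receptor *Nr3c1* by 0.54. *Jak2* rose by 0.30, and *Stat5b* (0.09) was not called. Among genes that STAT5 or the glucocorticoid receptor is known to induce, *Cish* (−1.22), *Fkbp5* (−1.47), *Tsc22d3* (−0.89) and *Per1* (−0.81) fell, whereas *Socs2* (0.86) and *Socs3* (1.11) rose. *Nr1d1* rose by 1.55. *Esr1* and *Foxa1*, markers of hormone-sensing luminal cells, were at least 2.64-fold and 1.67-fold higher, from probes not above background on any LeGO-GFP array.

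Most genes that mark luminal progenitor and alveolar cells fell. In such bulk samples fewer cells of a type and less RNA per cell cannot be told apart. Of 15 luminal progenitor and alveolar genes, 9 were lower and 3 higher (median −0.92, or −1.95 over bright probes of 12 genes). *Kit*, the stem cell factor receptor, went from 14.13, 14.02 and 13.84 to 9.37, 9.32 and 9.44, a log2 fold change of −4.62 (SE 0.0867, limma adjusted p = 1.06e-07). *Sox10* was at least 2.69-fold lower. The 3 rises were those of *Lif* (3.09, 2 LeGO-GFP arrays above background), *Itga2* (at least 1.51-fold) and *Itgb3* (1.02). Of 18 basal genes, 7 were higher and 8 lower (median −0.08), with *Procr*, a mark of multipotent basal cells, higher by 3.01 and the contractile kinase *Mylk* lower at −3.08. The oxytocin receptor *Oxtr* changed by −1.76, whereas the smooth muscle genes *Cnn1* (1.34) and *Acta2* (0.92) rose. Of 17 mature luminal genes, 4 were higher and 5 lower (median 0.13), shares near those of all genes. Lower were *Ly6a* (−2.19) and *S100a6* (−1.03).

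Keratins, the intermediate filament proteins of epithelia, fell more often than they rose, with 9 of 16 lower and 4 higher (median −0.56). Beside *Krt23*, a large fall was that of *Krt15*, from 14.08, 13.95 and 14.03 in LeGO-GFP to 5.52, 3.30 and 4.32 in LeGO-1.0/1.6 cells, a log2 fold change of −9.64. LeGO-1.0/1.6 replicate 1 had the highest of these values, 2 of the 3 arrays were above background, and without it the log2 fold change was −10.21. The basal pair *Krt5* and *Krt14* changed by −2.76 and −1.78, and *Krt10* by −1.28. The luminal keratin *Krt8* fell by 0.27 on the log2 scale and *Krt18* (0.15) was not called. Of the keratins that rose, *Krt16* (1.65), *Krt17* (1.51) and *Krt6a* (0.62) are known from wounded and activated epidermis. *Krt20* was called higher too, with log2 signals of 6.47 and 6.24 on LeGO-1.0/1.6 replicates 2 and 3, no LeGO-GFP array above background and replicate 1 left out as an outlier spot. In siNEG cells the hormones had changed *Krt17* by −4.31, *Krt16* by −2.69 and *Krt6a* by −1.96.

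Of 38 genes of tight and adherens junctions and their regulators, 24 were lower and 5 higher (median −0.35). *Cldn8*, a claudin of tight epithelia, had log2 signals of 7.52, 7.38 and 7.59 in LeGO-GFP and 1.86, 1.87 and 1.89 in LeGO-1.0/1.6 cells and was at least 18.1-fold lower. The scaffold protein *Tjp3* changed by −2.47, the epithelial transcription factor *Grhl1* by −2.41, the desmosome-associated *Perp* by −1.45 and *Marveld3* by −1.37. Falls in E-cadherin (*Cdh1*, −0.34) and *Epcam* (−1.06) were smaller. *Cldn1* (1.08), *Esrp1* (0.98), *Cldn4* (0.89), P-cadherin (*Cdh3*, 0.88) and *Dsc2* (0.61) rose. The hormones had raised 24 and lowered 2 of the 38 genes in siNEG cells, *Cldn8* by 5.55.

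Inflammatory cytokines, chemokines and their regulators had the highest median of the lists, 1.19, with 20 of 32 genes higher and 6 lower. Averaged over all bright probes of each gene the median was 2.16 over 28 genes. That filter drops dim members and keeps genes bright in LeGO-1.0/1.6 cells alone. The larger median therefore does not strengthen the result. *Il1a* was at 1.83, 1.83 and 1.83, the low end of the scale, in LeGO-GFP and 10.01, 10.02 and 9.96 in LeGO-1.0/1.6 cells. *Nos2* went from 9.17, 9.03 and 8.88 to 15.08, 15.20 and 15.16, and *Ptgs2*, which makes the precursor of prostaglandins, from 7.14, 7.20 and 7.11 to 12.05, 12.05 and 12.13. The LeGO-1.0/1.6 arrays lay close together for these genes and above every control array, which a call nearly requires. The neutrophil chemokines *Cxcl2*, *Cxcl1* and *Cxcl5* rose by 4.82 (1 LeGO-GFP array above background), 4.64 and 4.07, *Il6* by 3.55 and *Ccl5* by 3.21. The NF-κB feedback genes *Nfkbia* and *Tnfaip3* rose by 0.87 and 1.72. *Cxcl14*, a chemokine of resting epithelia, was at least 16.2-fold lower, and *Ccl9* (−3.77), *Il18* (−1.89), *Cx3cl1* (−1.23) and *Cxcl12* (−1.09) fell. *Tnf* was lower, at −0.62. In siNEG cells the hormones raised 7 and lowered 10 of the list, against 4290 and 3943 of all 20169 genes. The median was 0.01, and *Il6* changed by −5.39.

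The acute phase and innate defence genes divided, with 13 of 29 higher and 9 lower (median 0.62). *S100a9*, the partner of *S100a8*, rose by 6.40 (2 LeGO-GFP arrays above background), and *Saa3*, *C1s1* and *Chil1* rose by 4.89, 2.95 and 2.90. *Saa1* and *Saa2* rose by 1.99 and 2.27. *Ltf* (−4.31), complement *C4b* (−3.47), *Lrg1* (−3.32), the C1 inhibitor *Serping1* (−3.01) and haptoglobin (*Hp*, −2.98) fell. *Hp* was bright in all groups and went from 17.23, 17.29 and 17.40 to 14.37, 14.36 and 14.23.

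The promoters of 2 inflammatory genes that rose, one with and one without matches to an NF-κB motif, are shown to let the letters be compared. *Cxcl2* lies at chr5:90903649-90903948 on the plus strand and *Il1a* at chr2:129309923-129310222 on the minus strand (RefSeq, GRCm38.p6). Capitals mark matches to GGGNNTTNCC, letters of the NF-κB recognition sequence, on either strand. Of 24 members with a window, 10 (41.7%) held a match, against 5.48% of 27025 genes. Among the 12 of these 24 that were called higher, 8 held a match. A link between motif and change was not tested. *Cxcl2* held 2 matches and *Il1a* and *Ptgs2* held none, which says nothing about sites outside these 300 bases.
Cxcl2: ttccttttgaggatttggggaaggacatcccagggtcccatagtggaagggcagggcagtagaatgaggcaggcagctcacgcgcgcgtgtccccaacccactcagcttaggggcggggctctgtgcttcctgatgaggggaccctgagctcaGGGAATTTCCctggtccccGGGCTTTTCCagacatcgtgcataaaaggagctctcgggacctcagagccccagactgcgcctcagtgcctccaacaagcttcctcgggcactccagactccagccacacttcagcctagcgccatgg
Il1a: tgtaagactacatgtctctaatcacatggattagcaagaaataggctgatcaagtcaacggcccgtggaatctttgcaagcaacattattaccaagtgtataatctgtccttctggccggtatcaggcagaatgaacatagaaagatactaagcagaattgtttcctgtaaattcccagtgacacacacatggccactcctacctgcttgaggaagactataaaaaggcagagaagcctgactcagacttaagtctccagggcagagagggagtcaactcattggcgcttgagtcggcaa

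Interferon-stimulated genes rose as well, by smaller amounts. Of 47 measured of 49 listed, 27 were higher and 7 lower, with a median log2 fold change of 0.50. *Rsad2*, the antiviral protein viperin, had log2 signals of 7.95, 7.34 and 7.38 in LeGO-GFP and 10.71, 11.05 and 10.92 in LeGO-1.0/1.6 cells, a log2 fold change of 3.33 (SE 0.172, limma adjusted p = 6.45e-06). *Cxcl10* went from 7.13, 6.72 and 7.07 to 9.67, 9.88 and 9.93. Both were higher on every LeGO-1.0/1.6 array than on any control array. *Oasl1* (2.65), *Herc6* (2.13) and tetherin (*Bst2*, 1.63) followed. *Oas2*, a sensor of double-stranded RNA, fell by 2.19 on the log2 scale, and the RNA-activated kinase *Eif2ak2* (−0.95), *Ifi27* (−0.60) and the RNA sensor *Ddx58* (−0.58) were lower too. *Irf7* (0.07) and *Irf9* (0.23) were not called. Against LeGO-DCR, 30 were higher and 7 lower, and *Rsad2* was at 7.67 in LeGO-DCR cells. All 9 arrays came from lentivirus-infected cells, and cells without virus were not among them.

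Of 23 genes of antigen presentation, 13 were higher and 5 lower (median 0.32, or 0.62 over bright probes of 19 genes). With scaling to the 75th percentile 3 were lower. The class II gene *H2-Ab1* had log2 signals of 2.82, 4.21 and 2.97 in LeGO-GFP and 7.54, 7.39 and 7.46 in LeGO-1.0/1.6 cells, and *H2-Eb1* 2.94, 4.01 and 3.06 and 6.32, 6.38 and 6.36. Both were well above background on 1 LeGO-GFP array and on all LeGO-1.0/1.6 arrays. *Nlrc5*, the transactivator of class I genes, rose by 2.87, the invariant chain *Cd74* by 2.03 and *H2-M3* by 1.78. *H2-T23* (−0.50), *H2-DMa* (−0.41), *Erap1* (−0.35), *Tapbp* (−0.33) and *Tap2* (−0.21) were lower, each by less than 1 log2. The class II transactivator *Ciita* (−1.07) was not called.

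The promoters of the 2 interferon-stimulated genes with the largest rises are shown as both hold letters of the interferon-stimulated response element. *Rsad2* lies at chr12:26456403-26456702 and *Cxcl10* at chr5:92348840-92349139, both on the minus strand (RefSeq, GRCm38.p6). Capitals mark matches to GAAANNGAA on either strand. Of 35 members with a window, 22 (62.9%) held a match, against 9.76% of 27025 genes. Among the 21 of these 35 that were called higher, 13 held a match. A link between motif and change was not tested. The window of *Oasl1*, next by size, held none.
Rsad2: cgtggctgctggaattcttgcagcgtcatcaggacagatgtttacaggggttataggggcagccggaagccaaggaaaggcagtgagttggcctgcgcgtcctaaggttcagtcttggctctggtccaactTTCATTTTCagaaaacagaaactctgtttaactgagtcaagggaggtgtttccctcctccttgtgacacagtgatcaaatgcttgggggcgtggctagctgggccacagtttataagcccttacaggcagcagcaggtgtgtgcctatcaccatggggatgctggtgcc
Cxcl10: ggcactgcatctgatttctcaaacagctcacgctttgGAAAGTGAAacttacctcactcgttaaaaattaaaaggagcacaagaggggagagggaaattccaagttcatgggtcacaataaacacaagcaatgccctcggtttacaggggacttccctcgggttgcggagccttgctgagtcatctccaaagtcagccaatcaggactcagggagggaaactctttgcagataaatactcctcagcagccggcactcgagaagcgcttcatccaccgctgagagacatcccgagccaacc

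Genes of DNA replication and mitosis were higher after *mPINC* overexpression. Of 39 measured, 28 were higher and 2 lower, with a median log2 fold change of 1.13. *Top2a*, the topoisomerase that untangles chromosomes, had log2 signals of 10.01, 9.62 and 9.46 in LeGO-GFP and 11.93, 11.97 and 11.99 in LeGO-1.0/1.6 cells, a log2 fold change of 2.26 (SE 0.137, limma adjusted p = 1.38e-05). The licensing factor *Cdt1* rose by 2.11, the checkpoint kinase *Bub1* by 2.01, cyclin D2 (*Ccnd2*) by 1.78 and the spindle kinase *Aurka* by 1.73. LeGO-GFP replicate 1 was the highest of the control arrays for *Top2a*, *Bub1* and *Aurka*, yet below every LeGO-1.0/1.6 array. The members that were lower were the cell cycle inhibitor *Cdkn1a* (−0.45) and *Ccnd3* (−0.24). The hormones had lowered 34 and raised 2 of the 39 genes in siNEG cells, with a median of −2.37. For *Top2a* the siNEG means were 11.99 in −LH and 9.09 in +LH cells, and the LeGO-1.0/1.6 mean was 11.96.

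Ligands of the EGF receptor family and genes that ERK signalling is known to induce were also higher, with 18 of 30 higher and 5 lower (median 0.70). *Dusp4* went from 7.26, 6.95 and 6.61 in LeGO-GFP to 11.96, 11.88 and 11.89 in LeGO-1.0/1.6 cells and *Areg* from 4.97, 4.85 and 4.75 to 10.03, 9.79 and 9.60. For both, the lack of overlap between the groups was a condition of the ranking above. The ETS factors *Etv4* and *Etv5* rose by 4.52 and 4.23, the ERBB3 and ERBB4 ligand neuregulin (*Nrg1*) by 4.29, and *Hbegf* and *Ereg* by 3.41 and 2.23. *Fgf1* (−3.66) and the receptors *Fgfr2* (−1.12), *Erbb2* (−1.09), *Fgfr1* (−0.68) and *Erbb3* (−0.80) were lower. *Erbb3* kept its call under 13 of 22 alternatives. In siNEG cells the hormones had lowered 14 and raised 7 of the list, *Etv4* by a log2 change of −5.32, *Areg* of −4.51 and *Dusp4* of −3.96.

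Genes of the cornified envelope, the protein shell of skin cells, split evenly, with 7 of 24 measured (26 listed) higher and 7 lower and a median of −0.02. The largest rises were those of *Sprr2d*, of *Sprr2h* (at least 50.3-fold), the serpin *Serpinb2* (at least 10.8-fold) and *Sprr1b* (3.44, 1 LeGO-GFP array above background), and involucrin (*Ivl*) was at least 1.29-fold higher. *Tgm1* (−2.71), periplakin (*Ppl*, −2.22), *Sprr1a* (−1.99), *Cnfn* (−1.32) and *Sbsn* (−0.96) fell. The small proline-rich genes are closely related copies in a gene cluster, so probes of this family may register each other's transcripts.

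Mesenchymal genes were higher in 20 and lower in 13 of 43 cases (median 0.42). The matrix metalloproteinases led, with *Mmp3* at 4.63, 4.27 and 4.46 in LeGO-GFP (2 arrays above background) and 11.14, 11.21 and 11.08 in LeGO-1.0/1.6 cells, *Mmp13* at least 21.6-fold higher and *Mmp9* at least 4.12-fold higher. The transcription factors *Zeb1* and *Zeb2*, repressors of E-cadherin, rose by 3.46 and 3.32 and the collagen *Col5a1* by 3.68. Vimentin (*Vim*) and fibronectin (*Fn1*) rose by 0.71 and 0.61. *Col3a1* (−4.12), *Sparc* (−2.50), the growth factor *Ccn2* (−2.13), *Pdgfrb* (−1.90) and *Col6a2* (−1.15) fell. *Sparc* was among the brightest genes and went from 18.28, 18.24 and 18.40 to 15.82, 15.78 and 15.84, with no overlap. Of 27 basement membrane and integrin genes, 11 were higher and 7 lower (median 0.07, or 0.17 without LeGO-1.0/1.6 replicate 1). The integrin chains *Itga5* (1.94) and *Itga3* (1.14) and the laminin chain *Lamb1* (1.87) rose. *Col4a5* (−2.09), *Itgb6* (−1.0), and the hemidesmosome genes *Itgb4* (−0.91) and *Col17a1* (−0.87) fell, with *Lamb3* (−0.73).

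In the Notch pathway 5 of 25 genes were higher and 8 lower (median −0.19), with a ligand and a target in opposite directions. The ligand *Jag1* went from 6.43, 6.0 and 6.37 to 9.49, 9.59 and 9.49 and the target *Hey1* from 11.07, 11.02 and 11.03 to 7.87, 7.98 and 7.97. The receptors *Notch3* and *Notch4* changed by −2.54 and −1.54, the glycosyltransferase *Lfng* by −1.41 and the ligand *Dll1* by −1.05. *Mib2* and *Mib1*, ubiquitin ligases for Notch ligands, rose by 0.61 and 0.52, *Jag2* by 0.37 and *Rbpj* by 0.25. *Notch1* (−0.79) was not called and *Hes1* was not above background in either group. *Dlk2*, a noncanonical ligand, changed by −0.99.

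The Wnt pathway had 11 of 42 genes higher and 11 lower (median −0.01), with ligands on both sides. *Wnt5b* (−5.32), the secreted inhibitors *Wif1* (−5.30) and *Sfrp1* (−2.23), *Wnt4* (−3.10) and the intracellular inhibitor *Nkd2* (−2.48) fell. *Wnt7a* was at least 3.92-fold higher, and *Wnt9a* (2.38), *Wnt5a* (0.99) and the R-spondins *Rspo3* (3.02) and *Rspo1* (at least 3.98-fold) rose. *Wnt5b* went from 12.79, 12.56 and 12.50 in LeGO-GFP to 7.29, 7.36 and 7.25 in LeGO-1.0/1.6 cells. The canonical target *Axin2* (0.02) was not called.

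The IGF-binding proteins moved in different directions. *Igfbp5*, which is known from the involuting gland, was at 16.50, 16.79 and 16.69 in LeGO-GFP and 11.02, 11.22 and 11.32 in LeGO-1.0/1.6 cells, a log2 fold change of −5.47 (SE 0.1, limma adjusted p = 1.02e-07). *Igfbp2* changed by −3.32, whereas *Igfbp6* (2.85, 2 LeGO-GFP arrays above background) and *Igfbp3* (1.32) rose. Of 17 genes of the endothelin and IGF axis 4 were higher and 5 lower. Endothelin 1 (*Edn1*) changed by −0.73 and its receptor *Ednra* by 0.56. *Igfbp5* and *Igfbp2* are also neighbours of *mPINC* on chromosome 1. Of 30 genes of that neighbourhood 8 were higher and 8 lower, with a median of 0.09. *Mreg* (3.74), *Bard1* (1.70) and *Atic* (1.12) rose in the same region, and *Cps1* was at least 2.03-fold lower. *Tnp1* (−2.48, 2 LeGO-1.0/1.6 arrays above background) kept its call under 17 of 22 alternatives and *Abca12* (called lower, 1 LeGO-GFP array above background) under 9 of 21. Median log2 fold changes by chromosome ran from −0.09 on chromosome 6 to 0.09 on chromosome 12, and chromosome 1 lay at 0.06.

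Polycomb repressive complex 2 methylates histone H3 at lysine 27, and the study examined it together with *mPINC*. Its core subunits differed by small amounts. The methyltransferase *Ezh2* had log2 signals of 10.34, 10.26 and 10.19 in LeGO-GFP and 10.89, 10.85 and 10.83 in LeGO-1.0/1.6 cells, a log2 fold change of 0.59 (SE 0.0549, limma adjusted p = 0.000123). *Suz12* and *Eed* rose by 0.35 and 0.35 and the histone-binding *Rbbp7* by 0.27, while *Rbbp4* (−0.15) was not called. The cofactor *Jarid2* fell from 8.75, 8.62 and 8.34 to 7.13, 7.52 and 7.74, the largest change among 12 genes of the complex. *Ezh1* (0.19) and *Phf1* (−0.20) each kept their call under 7 of 22 alternatives, and *Mtf2* (0.20), *Aebp2* (−0.10), *Epop* (−0.11) and *Phf19* (0.96) were not called. With the subunits of complex 1 and the demethylases, 9 of 26 genes were higher and 8 lower (median −0.04), whereas 5 were higher with scaling to the 75th percentile. Among them *Bmi1* (−0.78) and the H3K27 demethylases *Kdm6b* (−0.73) and *Kdm6a* (−0.56) fell, and *Phc2* (0.66) rose.

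Hox genes, classical targets of the complex, were mostly not called, with 7 of 39 higher, 5 lower and 27 not called (median −0.04). Without LeGO-1.0/1.6 replicate 1, and likewise with scaling to the 75th percentile, 3 were lower. For 17 of the 39 neither group had the probe well above background on all its arrays. *Hoxb13* (1.58), *Hoxb6* (1.57), *Hoxc4* (0.97), *Hoxb2* (0.89) and *Hoxb4* (0.77) rose. *Hoxc9* (−1.29), *Hoxa3* (−1.13), *Hoxa2* (−0.63), *Hoxa5* (−0.44) and *Hoxa7* (−0.26) were lower. Of the 12 called, 5 of the 7 that were higher lay in the HoxB cluster and 4 of the 5 that were lower in the HoxA cluster. This grouping was not a planned comparison and was not tested. The shares of the 39 genes called higher and lower are below those of all genes (22.6% and 23.1%). *Hoxa2* and *Hoxa7* kept their calls under 11 and 10 of 22 alternatives.

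Glycolytic and hypoxia genes were lower by small steps, with 18 of 26 lower and 5 higher (median −0.53). *Pfkl*, a subunit of phosphofructokinase, changed by −1.41 and the aldolase *Aldoc* by −1.0. *Adm* (−1.18), *Ankrd37* (−1.16) and the carbonic anhydrase *Car9* (−0.92) fell as well. Against this stood hexokinase 2 (*Hk2*, 2.31), *Eno2* (1.88), *Vegfa* (1.28) and *Ndrg1* (0.55), which rose with the glucose transporter *Slc2a1* (1.51). *Hk2* went from 8.82, 9.14 and 8.99 to 11.26, 11.38 and 11.23. The hormones had raised 17 and lowered 0 of the 26 genes in siNEG cells, with 0.53 as the median.

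Genes of the unfolded protein and integrated stress responses were higher in 13 and lower in 3 of 21 cases (median 0.37). *Ddit3*, the stress factor CHOP, had log2 signals of 9.90, 9.70 and 9.88 in LeGO-GFP and 13.08, 13.20 and 13.15 in LeGO-1.0/1.6 cells, a log2 fold change of 3.32 (SE 0.067, limma adjusted p = 1.39e-07). *Trib3* (2.48), *Chac1* (1.96), *Atf3* (1.33) and the chaperone *Hspa5* (0.84) rose. *Xbp1*, a factor for secretory capacity, fell by 0.78 on the log2 scale, *Creb3l4* by 0.62 and *Sec61a1* by 0.37. In siNEG cells 8 of the list rose and 3 fell with the hormones (median 0.07), against 4290 and 3943 of all 20169 genes.

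The cell type of the samples was checked against marker lists. All groups expressed epithelial markers. Of 11 mammary epithelial markers 10 were bright throughout one or more of the groups, and 8 were lower and 1 higher in LeGO-1.0/1.6 cells (median −0.61). The mean log2 level of this list ran from 12.36 to 12.58 over the LeGO-GFP arrays and from 11.77 to 11.98 over the LeGO-1.0/1.6 arrays. Endothelial markers gave 0 calls among 8. Of 13 macrophage and dendritic cell markers measured (14 listed), 3 were higher and 3 lower, with the mean level of the list between 5.31 and 5.42 in LeGO-GFP and 5.95 and 6.33 in LeGO-1.0/1.6 cells, but a median log2 fold change of 0.04. *Lilrb4a* rose (12.27 against a mean of 2.23 that was not above background), as did *Lyz2* (3.77, 4.47 and 3.66, 2 LeGO-1.0/1.6 arrays and no LeGO-GFP array above background) and *Fcer1g* (0.56), whereas *Fcgr1* (4.08, 3.56 and 4.47 in LeGO-GFP, 1 of these arrays and no LeGO-1.0/1.6 array above background), *Cd14* (−0.92) and *Itgam* (−0.59) were lower. The defining leukocyte and macrophage genes *Ptprc* (0.22), *Csf1r* (−0.09) and *Adgre1* (−0.41) were not called, and *Mrc1* and *Itgax* were at background in both groups. The kinase *Lck* rose by 2.98 among 9 lymphocyte markers, of which *Cd3e* (−0.41) was lower, called under 9 of 22 alternatives.

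Of 10 fibroblast markers 5 were lower and 1 higher (median −0.50), which here means decorin (*Dcn*, −4.62), *Col3a1* (−4.12), lumican (*Lum*, at least 5.63-fold lower), *Pdgfrb* (−1.90) and *Postn* (−0.77), with *Pdgfra* higher (0.96). *Dcn* had been raised by 6.98 with the hormones in siNEG cells. Of 6 adipocyte markers 3 were higher, the fatty acid carrier *Fabp4* (3.66), *Pparg* (1.48) and *Adipoq*, the last with 0 arrays well above background in any lentivirus group and so no level. The part of admixed cells in the inflammatory or matrix results was not tested.

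**Figure D4:**
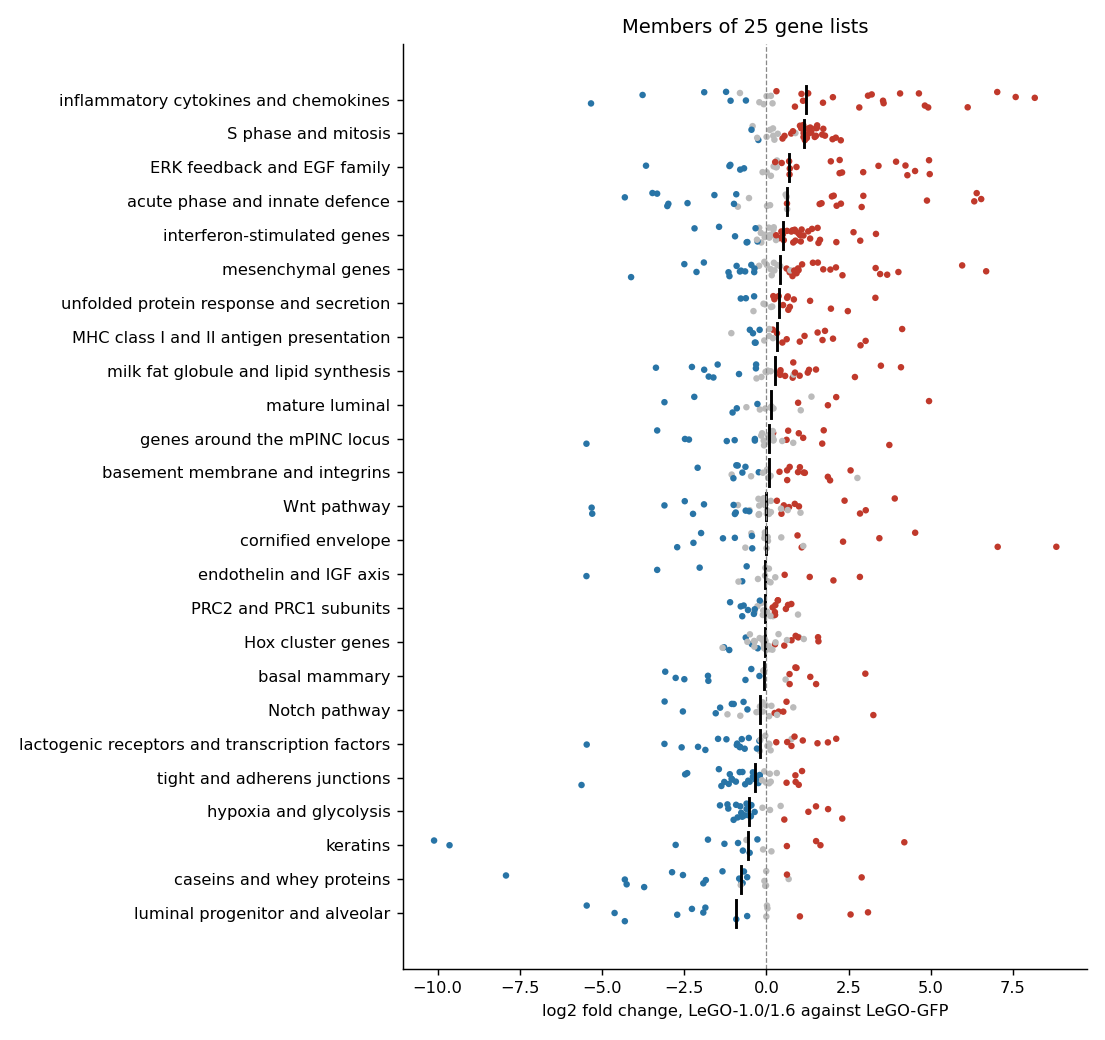
Log2 fold change of LeGO-1.0/1.6 against LeGO-GFP (horizontal axis) for the measured members of 25 gene lists (rows, ordered by median). Red and blue points were called higher and lower, grey points were not called, the black bar is the list's median and the dashed line is 0. Medians run from −0.92 for luminal progenitor and alveolar genes to 1.19 for inflammatory genes.

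Across the array, genes that hormones raise were lower and genes that hormones lower were higher in LeGO-1.0/1.6 cells. The hormone response was taken from the siNEG arrays, which share no array with the lentivirus groups. There 15115 probes (27.1%) were called, 7535 higher and 7580 lower in +LH cells. Of the hormone-raised probes, 58.4% were lower and 11.4% higher in LeGO-1.0/1.6 than in LeGO-GFP cells, with a median log2 fold change of −0.51. Of the hormone-lowered probes, 51.6% were higher and 982 probes lower, with a median of 0.39. Among the 40566 probes not called for the hormones, the shares were 8.12% higher and 8.39% lower, and among all probes 14.5% and 15.8%. For the 754 probes raised by more than 2 on the log2 scale, 67.4% were lower with a median of −1.50, and for the 897 lowered by more than 2, 66.3% were higher with a median of 1.29. Within slide 3 the shares of 58.4% and 51.6% became 57.7% and 53.5%. For LeGO-DCR against LeGO-GFP the medians of the hormone-raised and hormone-lowered probes were 0.00 and −0.01. On the siNEG side, both −LH arrays and 1 of the 3 +LH arrays lay on slide 1 and the other +LH arrays on slide 2. The medium of these groups may have differed as well, and its part was not tested.

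**Figure D5:**
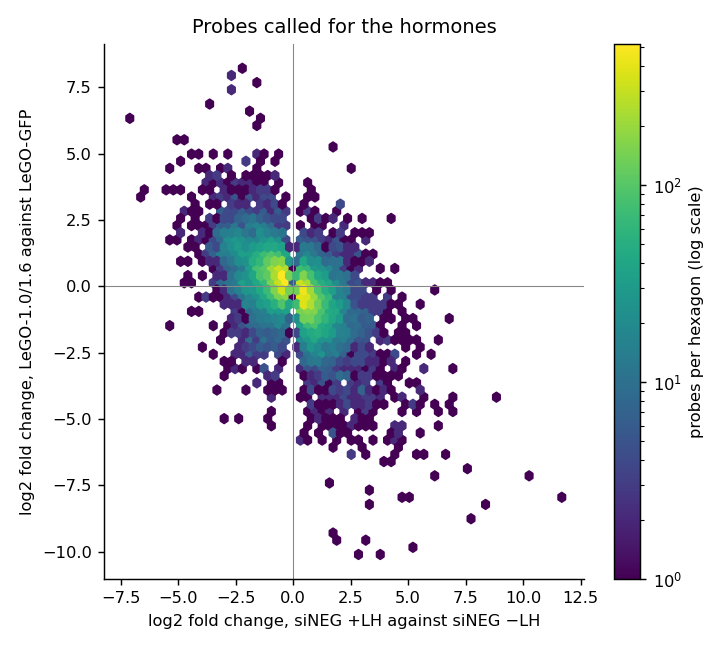
Log2 fold change of LeGO-1.0/1.6 against LeGO-GFP (vertical axis) and of siNEG +LH against siNEG −LH (horizontal axis) for the 15115 probes called for the hormones. Colour gives the number of probes per hexagon on a log scale. Most probes raised by hormones lie below 0 on the vertical axis and most lowered probes above it.

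Not every group ran opposite to the hormones. Of the 47 interferon-stimulated genes, 29 were higher and 7 lower with the hormones, and with *mPINC* 27 were higher and 7 lower. *Rsad2*, *Cxcl10* and *Nos2*, which rose with *mPINC*, were not called for the hormones, with differences of −0.25, −0.33 and 0.06. *Krt5* was lower in both comparisons, at −2.72 with the hormones and −2.76 with *mPINC*, and *Igfbp2* likewise at −2.99 and −3.32. The complement gene *C1s1* was higher in both, at 2.05 and 2.95, as were *Xdh* at 2.06 and 1.01 and *Ednra* at 2.88 and 0.56.

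The 19 genes that the study names, which include *mPINC* itself and the milk markers *Csn2*, *Wap* and *Ltf*, were chosen in part on these samples and so are not independent evidence of a direction. All were called, 5 higher and 14 lower (median −1.48). Against LeGO-DCR the same counts were 5 and 14, and between LeGO-DCR and LeGO-GFP 0 of the 19 were called. The largest differences from LeGO-DCR among genes bright in both groups were rises of *Pinc*, *S100a8* (6.55), *Nos2* (6.32), *Slc6a12* (6.31), *Orm3* (6.13) and *Saa3* (5.07) and falls of *Cxcl17* (−8.72), *Pip* (−8.05), *Lrrc26* (−8.03), *Sult1a1* (−6.72), *Atp10b* (−6.50) and *Sftpd* (−6.45). Of the 32 gene lists, 0 had a member called between LeGO-DCR and LeGO-GFP. Over all genes 8 of 20169 (0.0397%) were called there. These counts of 0 are thus near the share of all genes and show nothing particular to the members. *Csn2* differed between these groups by 0.33 (standard error 0.239) and *Ltf* by 0.13 (standard error 0.0638), neither called.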

How the data were processed

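Gene expression was measured on 24 Agilent one-colour mouse arrays, scanned on 3 slides, of HC11 cells. The authors deposited the Feature Extraction output of each array, whose processed signal is an intensity already corrected for background and whose marks (well above background, outlier, control spot) are other columns of the same files. They also deposited a value table on the log2 scale, quantile normalized, which ranks the spots of each array as median signal minus local background (Spearman's rho 1.0, column medians 5.3554 to 5.3794) and was used as an alternative. Build mm9 is named in the array headers, and coordinates of probes were not used.

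From these files, log2 processed signals of 59305 spots that are no controls were quantile normalized over the 24 arrays, outlier spots were left out, and spots of a probe were averaged, which gave 55681 probes. The 9 lentivirus arrays were fitted with limma 3.58.1 in R 4.3.3 (lmFit, eBayes), with Benjamini-Hochberg adjustment over all probes. The arrays of the siNEG groups were fitted apart in the same way, on the siRNA arrays. Groups were taken from the labels. Symbols came from the study's supplementary tables for 455 probes and from RefSeq accessions for 26161, and 29065 probes stayed unnamed. A gene was represented by the supplementary tables' probe or else by its brightest probe over all arrays, which left 20169 genes. Promoter windows are those of RefSeq (GRCm38.p6). Figures were drawn with matplotlib 3.10.9.

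Named were, per direction, the 12 largest changes among called genes bright in both groups and without overlap between the groups. Added were, per direction, the 6 largest lower bounds and up to 5 called members of each of 32 lists. The 6 largest differences from LeGO-DCR per direction followed the first rule. Further named were 19 genes the study names, PRC2 genes and defining members of a list. The members and lists were chosen with earlier results of these data known. *Xist*, Y-linked and housekeeping genes were added after the values had been seen. The 22 alternatives were other normalizations, background correction, filters, fits and tests and leaving out each array. In a test on simulated data for LeGO-1.0/1.6 against LeGO-GFP with 200 of 55681 probes changed, 48% of those changed by 1 on the log2 scale and 72% of those changed by 2 were called, with 6 unchanged probes called and 0 wrong signs. The data had 30.3% of probes called and a deviating LeGO-1.0/1.6 replicate 1. The simulation copied neither, so its shares may not apply to the data. No array spot was saturated (0 spots), and arrays give no read depth, so their number limits the precision. Results for a few list members are not reported here.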

Additional observations from a re-analysis of the deposited data

How the results depend on the processing

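The number of probes called for LeGO-1.0/1.6 against LeGO-GFP (16857) stayed between 13617 and 18217 under the alternatives run, except 10327 by the methods' t-test at its own p and fold thresholds, and between 15388 and 17083 when an array was left out. Against LeGO-DCR (16511) the methods' t-test gave 10927, the other alternatives 15035 to 18616 and leaving out an array 14376 to 17701. The small count between LeGO-DCR and LeGO-GFP (41) was less stable: 398 by the methods' t-test and 1 after its Benjamini-Hochberg adjustment, 6 with scaling to the 75th percentile, 25 with quantile normalization of the 9 lentivirus arrays, 79 with normexp, 0 with a trended and robust prior, 27 in a fit of these groups alone, 18 in a fit of all 24 arrays, 1 on the deposited log2 values, and 9 (without LeGO-DCR replicate 3) to 69 (without LeGO-GFP replicate 2) when an array was left out. The cause was not tested. Replicate numbers did not pair the arrays, as deviations of same-numbered arrays correlated between −0.059 and 0.070. With a replicate block the counts were 15705, 15514 and 0. Of 274 named genes 269 were called, 239 of them under every alternative that gave a value, and 0 changed sign. The methods' t-test with Benjamini-Hochberg adjustment lost 17 of these calls and scaling to the 75th percentile 14. Of 96 list medians under alternatives 45 moved by more than the spread between replicates, and 8 near 0 changed sign. With scaling to the 75th percentile the medians went from −0.19 to −0.39 for Notch and from −0.21 to −0.35 for lactogenic factors. Over bright probes, which 26 of the milk fat genes had, the milk fat median went from 0.28 to 0.42. Summed over both directions, called members moved by over 1.5 times in 2 of 96 cases, macrophage and lymphocyte markers. By direction, scaling to the 75th percentile also took PRC2 and PRC1 genes higher from 9 to 5, antigen presentation lower from 5 to 3 and Hox lower from 5 to 3 (3 without LeGO-1.0/1.6 replicate 1), and averaging bright probes took mammary epithelial markers higher from 1 to 2. Limits: 3 arrays a group, all lentivirus arrays with hormones, no cells without virus, LeGO-GFP replicate 1 on another slide, spots of LeGO-1.0/1.6 replicate 1 more often non-uniform, and no measured level for probes not above background.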
